A study of Mus musculus with 2 samples.

Results

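In 216 genes of mouse macrophages, 50% or more of the transcript level in the nucleoplasm was assigned to transcripts that the annotation types as retained intron. These genes were chosen by measured values. Each has a protein-coding transcript and a gene level of 10 TPM or more in both libraries, and its retained-intron transcripts held 50% or more of its summed transcript TPM in both libraries and in both kinds of transcript table. TPM is a level normalised for effective transcript length and to a fixed total per library. The deposited gene tables hold 55536 gene rows, of which 3437 passed the first criteria and 2458 of those have an annotated retained-intron transcript. Genes named Lilrb4a, Pirb, Tnip3 and Cd83, and those whose symbols start with Clk, Srsf, Dusp, Hnrnp, Rbm, Zfp or Trim, were left out, and 22 of them met the values. Without these names the 216 genes were 6.48% of 3334 expressed genes with a protein-coding transcript. They were 9.05% of the 2388 that also have a retained-intron transcript. The remaining 2172 of those 2388 are called the comparison genes below. Since the choice used the TPM shares, those shares are a description and nothing is tested on them.

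The RNA came from bone marrow-derived macrophages of the inbred mouse strain C57BL/6J. The cells were given 100 ng/ml Lipid A, the part of bacterial lipopolysaccharide that Toll-like receptor 4 recognises, for 12 h, kept for 12 h after washout, and given 100 ng/ml again for 30 min. There is 1 group with 2 biological replicates and no untreated group, so no condition can be compared. The labels give both replicates the same donor identifier and separate biosamples, and the spread between them may be technical in part. Library building started from 1 µg of RNA in replicate 1 and 500 ng in replicate 2. Gene counts summed to 23846021 and 20675305. All 10 macrophage markers, among them Csf1r and Adgre1, stood at 10 TPM or more in both libraries. For lists of fibroblast, erythroid, dendritic cell, neutrophil, B cell, and T or NK cell markers, the summed TPM was 3.71 or less in either library.

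Introns are removed from a pre-mRNA by the spliceosome, mostly while the gene is still being transcribed. An intron that stays in an otherwise processed RNA is called retained. Such RNAs are often held in the nucleus, where the intron may be spliced later, and when exported they are frequently targets of nonsense-mediated decay because the intron brings a premature stop codon. GENCODE, the annotation behind these tables, uses the type retained intron for a transcript model with intronic sequence relative to coding transcripts of the same gene. Many such models are partial, and some hold only the edge of an intron. RNA of the nucleoplasm also contains pre-mRNA in the course of splicing, and the tables do not separate it: an intron awaiting removal and an intron kept in a finished RNA cannot be told apart here.

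Retained-intron models differ in how much intron they hold, and the clearest are those that keep a whole intron within an exon. The 5 introns printed here are each at most 300 bases long, kept whole in the named transcript, and overlap no exon of any protein-coding transcript of their gene. They come from the genes with the highest mean TPM whose leading retained-intron model, the one with the highest level, has such an intron. They lie on build mm10 and were read from the GENCODE M21 transcript sequences, 5′ to 3′ on the strand of the gene, with the first and last 2 bases of the intron in capitals. For Lilr4b, a leukocyte immunoglobulin-like receptor, it is intron 3 of 8 of Lilr4b-201, at chr10:51481425-51481566 on the plus strand, kept in Lilr4b-206. For Cxcl2, a chemokine that attracts neutrophils, it is intron 1 of 2 of Cxcl2-202, at chr5:90904024-90904115 on the plus strand, kept in Cxcl2-203. For Clec4e, which encodes the glycolipid receptor Mincle, it is intron 3 of 5 of Clec4e-201, at chr6:123286360-123286431 on the minus strand, kept in Clec4e-205. For H2-Q7, a nonclassical MHC class I gene, it is intron 4 of 6 of H2-Q7-201, at chr17:35442552-35442677 on the plus strand, kept in H2-Q7-206. For Aup1, a lipid droplet protein that recruits a ubiquitin-conjugating enzyme, it is intron 7 of 11 of Aup1-201, at chr6:83056435-83056541 on the plus strand, kept in its leading retained-intron model.
Lilr4b: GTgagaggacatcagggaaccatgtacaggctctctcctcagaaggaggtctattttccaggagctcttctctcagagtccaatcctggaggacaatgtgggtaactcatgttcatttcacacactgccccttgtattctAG
Cxcl2: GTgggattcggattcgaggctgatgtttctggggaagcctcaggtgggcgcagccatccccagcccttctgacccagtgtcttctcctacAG
Clec4e: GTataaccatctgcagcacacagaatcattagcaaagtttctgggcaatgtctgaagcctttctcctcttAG
H2-Q7: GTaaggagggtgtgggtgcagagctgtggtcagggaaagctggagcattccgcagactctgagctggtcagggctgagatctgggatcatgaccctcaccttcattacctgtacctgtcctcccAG
Aup1: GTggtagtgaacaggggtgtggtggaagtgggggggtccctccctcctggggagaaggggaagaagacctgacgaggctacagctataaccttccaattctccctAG
All 5 start with GT and end with AG, as most introns do. Their lengths run from 72 bases in Clec4e to 142 in Lilr4b, and their GC content from 43.1% in Clec4e to 59.8% in Cxcl2. Read on in the frame of the exon before it, the intron holds a stop codon in Cxcl2, Clec4e, H2-Q7 and Aup1, and none in Lilr4b.

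The gene levels covered a wide range. Over the 216 genes the median level was 22.7 TPM in replicate 1 and 23.7 TPM in replicate 2, against 21.3 and 24.9 TPM in the comparison genes. A mean of 100 TPM or more was reached by 19 genes, 8.8%, against 7.83% of the comparison genes. A mean of 30 or more was reached by 83, 38.4% against 36.5%. The lowest gene count was 172 in replicate 1 and 145 in replicate 2. The summed retained-intron level had a median of 15.6 and 15.9 TPM, and the summed protein-coding level of the same genes a median of 6.39 and 7.10 TPM. In the comparison genes the order was opposite, at 5.27 and 4.85 TPM for retained-intron and 13.5 and 16.6 TPM for protein-coding transcripts. The rule sorted the genes by the share of these levels, so this contrast is a description of the choice. As a share of TPM in the alignment-based tables, which rest on reads aligned to the transcriptome, the median was 64.6% and 63.3%. In the read-based tables, which were made from the reads themselves, it was 66.6% and 65.8%. Both kinds of table come from the same libraries and are not independent. At the threshold, the lowest of the 4 shares was 50.1% in each of Ube2f, Xrcc1 and Cdk4, just inside, and 49.9%, 49.9% and 49.8% in Arfrp1, Usp14 and Nktr, just outside.

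**Figure D1:**
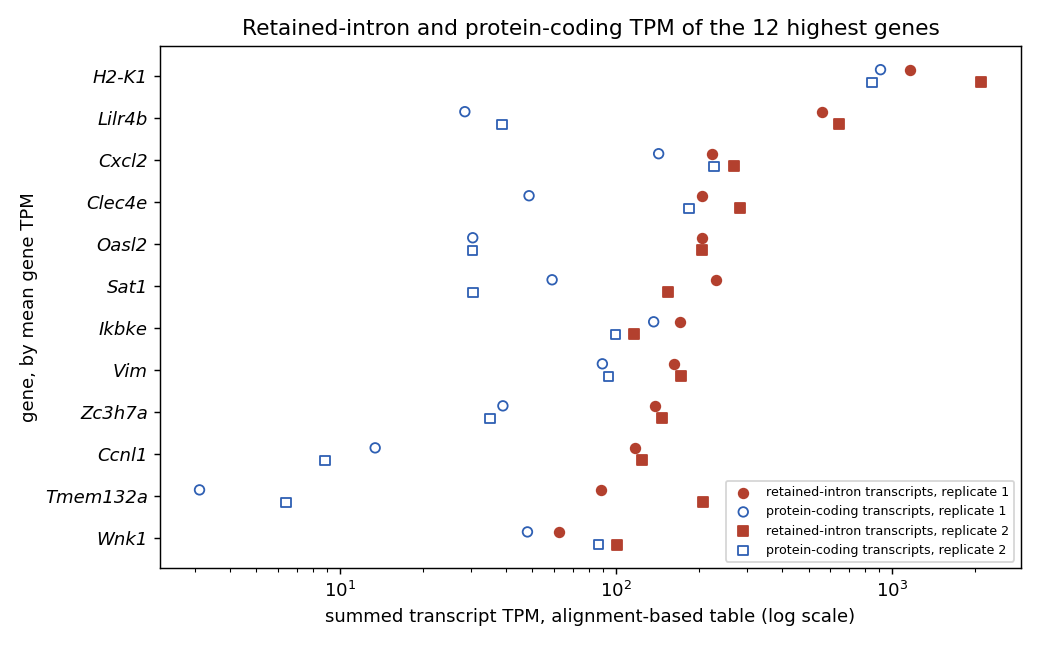
Summed transcript TPM on a log axis for the 12 genes with the highest mean gene TPM, with filled red marks for retained-intron transcripts and open blue marks for protein-coding ones (circles replicate 1, squares replicate 2). In every gene and library the retained-intron mark lies to the right, by little in Ikbke and Wnk1 and by far in Lilr4b and Tmem132a.

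The highest level belonged to H2-K1, the heavy chain of a classical MHC class I molecule that presents peptides to T cells (chr17:33996017-34000347). H2-K1 stood at 2123 TPM in replicate 1 and 2983 TPM in replicate 2. Its retained-intron transcripts held 1163 and 2114 TPM, and its protein-coding transcripts 911 and 848 TPM. The higher TPM of replicate 2 thus lay in the retained-intron class. The scaled gene counts were in the other order, with a log2 ratio of replicate 2 over replicate 1 of -0.24. A short model carried most of that class: H2-K1-215, 457 bases long, held 37.1% and 66.0% of the gene's TPM. Only 20 of its bases, 4.38%, lie outside exons of the gene's protein-coding transcripts. By counts, which are not divided by length, the retained-intron class of H2-K1 held 28.4% and 34.7% of the gene. H2-K1 shares sequence with other class I genes, so its counts are uncertain.

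Of the 12 highest genes, 5 were assigned to innate immune signalling and effectors. Lilr4b (chr10:51480632-51486703) stood at 741 and 964 TPM, with 561 and 647 TPM in retained-intron and 28.4 and 38.7 TPM in protein-coding transcripts. By counts its retained-intron class held 90.0% and 85.2% of the gene. Its leading retained-intron model, Lilr4b-206, is 1 exon of 4004 bases that runs through 7 annotated introns, 1 of which partly overlaps exons of another coding transcript, and 77.6% of it lies outside coding-transcript exons. In the alignment-based tables Lilr4b-206 held 24.6% and 13.5% of the gene's TPM. In replicate 2 of these tables a nonsense-mediated decay transcript was the highest of the gene. Lilr4b has a close neighbouring paralogue, and reads may be split between them. Clec4e (chr6:123281789-123289870) stood at 260 and 475 TPM. Its protein-coding level was 48.6 TPM in replicate 1 and 184 TPM in replicate 2, and its retained-intron level 205 and 281 TPM. The retained-intron share of Clec4e was therefore 78.6% and 59.2% in the alignment-based tables, but 51.1% and 58.3% in the read-based tables, so the direction between libraries differed with the table.

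Cxcl2 (chr5:90903871-90905938) stood at 367 and 495 TPM, with 224 and 268 TPM in retained-intron and 143 and 227 TPM in protein-coding transcripts. Cxcl2-203 is 1 exon of 2066 bases across the gene, with only 209 bases, 10.1%, outside coding-transcript exons. Ikbke, the kinase IKK epsilon that acts upstream of interferon regulatory factors (chr1:131254343-131279606), stood at 308 and 217 TPM. Its retained-intron and protein-coding levels were near each other, at 171 and 117 TPM against 137 and 100.1 TPM, and its share of counts was 40.4% and 40.3%. Oasl2, an interferon-induced protein of the oligoadenylate synthetase family (chr5:114896936-114912234), stood at 346 and 382 TPM. Retained-intron transcripts of Oasl2 held 205 TPM in each library and protein-coding ones 30.4 TPM in each. The rest, 31.9% and 38.4% of TPM in the alignment-based tables, lay in nonsense-mediated decay transcripts. The single highest transcript of Oasl2 was of that type in all 4 tables. The leading retained-intron model of Oasl2 is 1 exon of 2108 bases, of which 95.2% lies outside coding-transcript exons.

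The other 6 of the 12 highest genes are not immune receptors or signalling genes. Sat1, the acetyltransferase that starts polyamine breakdown (chrX:155213132-155216449), stood at 328 and 206 TPM, with 71.7% and 76.9% of its counts in retained-intron transcripts. Ccnl1, cyclin L1, a partner of CDK11 in splicing control (chr3:65946151-65958249), stood at 192 and 190 TPM, with 61.4% and 64.4% of counts. Tmem132a, a transmembrane protein gene (chr19:10857822-10869940), stood at 91.8 and 214 TPM and had the highest share of TPM among the 12, at 96.6% and 97.0%. All of that share lies in its only retained-intron model, Tmem132a-203, a single exon of 1371 bases that holds 2 introns whole, 1 of which is exon in another coding transcript. Tmem132a overlaps a gene on the opposite strand, and whether counting used strand is not stated in the labels or headers.

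Vim, Zc3h7a and Wnk1 had under 50% of their counts in retained-intron transcripts in the alignment-based tables, as H2-K1, Oasl2 and Ikbke had. Vim, the intermediate filament protein vimentin (chr2:13573927-13582826), stood at 253 and 266 TPM. Its share of counts was 38.6% and 37.0%, against 64.6% of TPM in each library. Its leading model Vim-203 has 535 bases, 9.72% of them outside coding-transcript exons. Zc3h7a, a zinc finger RNA-binding protein (chr16:11136592-11176393), stood at 193 and 196 TPM with 40.2% and 46.9% of counts, and 41 of the 699 bases of its leading model lie outside. Wnk1, a kinase that controls ion transport (chr6:119923969-120038672), stood at 113 and 190 TPM with 36.2% and 37.4% of counts, and 27 of 2934 bases lie outside.

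The difference between TPM and counts ran through the whole set. TPM divides a count by the effective length, so that a short model weighs more. The leading transcript of a type is the one with the highest mean TPM over all 4 transcript tables. The leading retained-intron transcript had a median length of 1333.5 bases, and the leading protein-coding transcript 2658.5 bases. The former was the shorter in 156 of the 216 genes, or 72.2%, against 79.3% of the comparison genes. Of these 156, 150 had a lower share by counts than by TPM. Where the retained-intron model was at least as long, 17 of 60 had. The median share of counts was 53.2% in replicate 1 and 54.0% in replicate 2, against 12.8% and 10.05% in the comparison genes. Counts rest on the same read assignment as the TPM that the rule used, so this gap is a description too. By this measure 120 genes in replicate 1 and 121 in replicate 2 had 50% or more, and 105 of the 216 had it in all 4 tables.

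**Figure D2:**
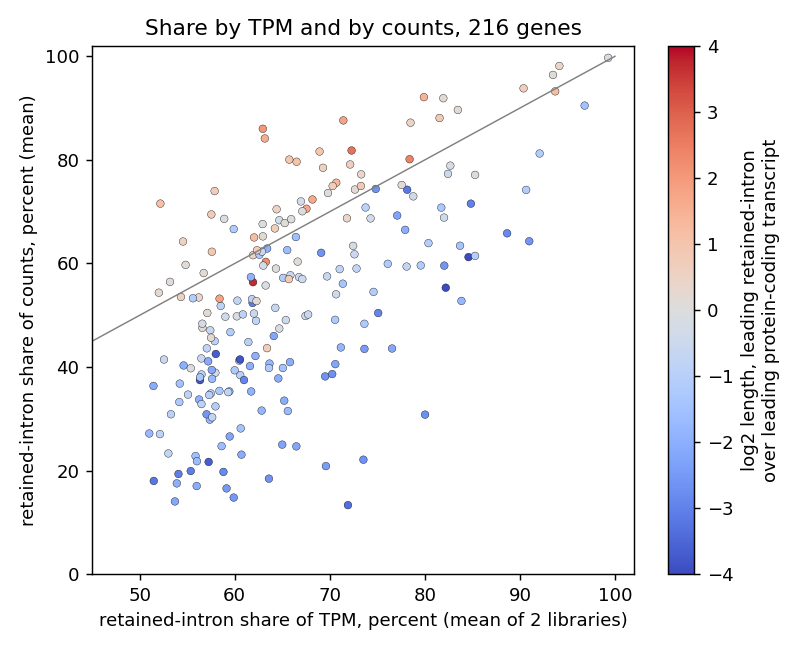
Retained-intron share of each of the 216 genes by TPM (horizontal axis, percent) and by counts (vertical axis, percent), both as means of 2 libraries in the alignment-based tables, coloured by log2 of the length of the leading retained-intron over the leading protein-coding transcript. The line marks equal shares: 167 genes lie below it, most of them blue (shorter retained-intron model), and 49 lie on or above it.

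Slc27a1, a fatty acid transport protein, had the highest share of counts, at 99.4% in replicate 1 and 100% in replicate 2. Its protein-coding transcripts were listed at 0.29 TPM and 0 against 39.6 and 26.2 TPM of retained-intron transcripts. Next came Spaca6, a sperm membrane protein gene, at 97.7% and 98.6%, and Gm21188 at 94.5% and 98.3%. Dctn6, a dynactin subunit, had 89.8% and 96.7%, 9030025P20Rik had 93.0% and 94.7%, and H2-Q7 had 91.8% and 92.4%. In Dctn6 only 69 of the 769 bases of the leading retained-intron model, 8.97%, lie outside coding-transcript exons. The annotation types 215 of the 216 as protein-coding genes and Hyi, a sugar isomerase gene, as a polymorphic pseudogene. At the other end, Sart1, a component of the U4/U6.U5 snRNP complex, had 9.83% and 16.9% of counts. Wdr43, a nucleolar protein, had 14.9% and 13.2%, and Ap1g2, an adaptor of vesicle transport, 12.6% and 17.0%. Cep192, a centrosomal protein, had 16.5% and 16.6%, and Rgl2, an effector of Ras-like GTPases, 16.7% and 17.4%. Brd2, a reader of acetylated histones, had 17.7% and 17.4%, although its level was among the higher ones, at 124 and 146 TPM. All 6 have 50% or more of their TPM in retained-intron transcripts, and each has a leading retained-intron model shorter than its leading protein-coding model.

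The set held 22 genes of splicing and nuclear RNA processing, with mean levels from 11.3 to 191 TPM. This and the other functional groups were assigned by hand once the genes were known, so their sizes are a description. Genes outside the set were not grouped, so no background share can be given for a group. From a list of 41 spliceosome genes, 22 had 10 TPM or more in both libraries, 21 of these had a retained-intron model, and 8 were among the 216. Of all 2388 expressed genes with a retained-intron model 9.05% were, and the difference was not tested. The list was written with earlier results of these data known, and Clk, Srsf, Hnrnp and Rbm genes were outside it and the rule alike.

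Sf3b1, the core subunit of the U2 snRNP that holds the branch site (chr1:54985169-55027481), stood at 71.0 and 83.1 TPM with 34.6% and 34.8% of counts in retained-intron transcripts. Its leading model Sf3b1-203 keeps intron 4 of Sf3b1-201 whole, and 53.3% of its 3403 bases lie outside coding-transcript exons. The splice sites of this intron are shown with 3 exon bases and with 6 intron bases at the 5′ end or 20 at the 3′ end, the first and last 2 intron bases in capitals. The intron lies at chr1:55014563-55016375 on the minus strand and is 1813 bases long.
Sf3b1 intron 4, 5′ site: atgGTaatt
Sf3b1 intron 4, 3′ site: gttgctgttcttttctgcAGgag
It has GT and AG ends, a GC content of 32.9% and a stop codon in frame.

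Luc7l2 and Luc7l, which belong to the U1 snRNP-associated LUC7 family, had 60.3% and 62.9% of counts and 49.7% and 50.7% of counts. Snrnp70, the U1 70K protein, had 66.4% and 63.6%. Prpf39, a U1-associated factor, had 62.6% and 64.2%. The subunits of the U2 auxiliary factor, which reads the 3′ splice site, had 56.4% and 44.3% in U2af1 and 46.8% and 54.1% in U2af2. In these 2 genes the share of counts thus moved in opposite directions between the libraries. The spliceosome genes with a retained-intron model that fell short of the rule ran down to Luc7l3, a further LUC7 gene, whose share of TPM was 11.1% and 5.60% in the alignment-based and 15.5% and 11.5% in the read-based tables. Membership thus differed within a single gene family.

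The other lists gave fewer genes. Of 36 genes for nuclear RNA surveillance and 3′ processing, 16 were expressed with a retained-intron model and 0 were among the 216. Zfc3h1, the scaffold of the PAXT complex, came nearest by its mean, with 42.2% and 52.6% of TPM in the alignment-based and 58.1% and 66.9% in the read-based tables. Of 8 expressed mRNA export genes with a retained-intron model 1 was included, Thoc1 of the THO complex, at 20.7 and 28.5 TPM with 75.5% and 73.0% of counts. Of 6 such nonsense-mediated decay genes 1 was included, Smg9, a regulator of the SMG1 kinase, at 14.8 and 15 TPM with 39.0% and 30.2% of counts. Among 13 early NF-kB and immediate early genes with such a model, the 2 included were Cxcl2 and Nfkb1, the p105 precursor of NF-kB p50. Nfkb1 stood at 33.2 and 35.9 TPM, with 62.6% and 56.8% of counts. Nfkbie, an inhibitor of NF-kB, missed the rule in a single value, with 67.9% and 61.7% in the alignment-based and 61.3% and 48.5% in the read-based tables. Of 23 interferon stimulated genes with such a model only Oasl2 was included. These counts are to be read against the 9.05% among all expressed genes with a retained-intron model, and no list was tested.

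Antigen presentation by MHC class I gave 5 genes: H2-K1, H2-Q7, the peptide transporter Tap2, the immunoproteasome subunit Psmb8 and the proteasome activator Psme2. Ribosomal proteins gave 4, Rpl27a, Rps16, Rps20 and Rpl5, which had mean levels of 17.2 to 22.9 TPM. Rps16 had 70.4% and 92.0% of counts in retained-intron transcripts, Rpl5 78.5% and 75.8%, Rpl27a 40.4% and 53.8%, and Rps20 26.6% and 17.6%. Nucleolar and ribosome assembly factors gave 6, led by Ncl, nucleolin, at 23.0 and 48.4 TPM. The model Ncl-202 alone held 61.2% and 78.9% of the TPM of Ncl. A small RNA gene lies inside 4 of the retained introns, in Rps20, Gnl3 (2 introns) and Rpl27a, or 0.858% of the 466 described below, against 2.35% in the comparison genes. The metabolic enzymes numbered 22 and had the second highest median share of counts among the groups, 65.4%, after 73.0% for antigen presentation. The latter is the middle of 5 widely spread values, from 31.6% in H2-K1 and 38.4% in Psme2 to 92.1% in H2-Q7, as means of both libraries. The 17 genes of transcription and chromatin had the lowest, 47.4%.

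The 2 libraries gave similar shares in these genes. The median difference, replicate 2 minus replicate 1, was -0.57 percentage points in the alignment-based and -0.56 in the read-based tables, and 113 and 116 of the 216 genes were lower in replicate 2. The comparison genes were more one-sided, with medians of -4.23 and -4.22 points and 77.6% and 73.6% of genes lower in replicate 2. Since the rule asks for 50% in both libraries, it bounds how far the share of a member can fall, and the 2 medians are not on the same footing. The median size of the difference, sign aside, was 5.04 points in the 216 genes and 5.49 in the comparison genes. A difference of 10 points or more in the same direction in both kinds of table occurred in 18 genes, 8.33%, against 15.7% of the comparison genes. The share was lower in replicate 2 in 12 of them, 5.56% of the set against 13.9% of the comparison genes: Stxbp2, Psmb8, Napa, Ccdc12, Irf3, Rps20, Sri, Fastk, Use1, Txndc9, Parp2 and Rmc1. It was higher in 6, 2.78% against 1.84%: H2-K1, Ankrd16, Usp16, Cyp4f13, Iffo1 and Mrps9. Irf3, the transcription factor that induces interferon beta, went from 75.8% to 58.4% of TPM in the alignment-based and from 73.6% to 60.3% in the read-based tables. These 18 were named after their values were seen.

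**Figure D3:**
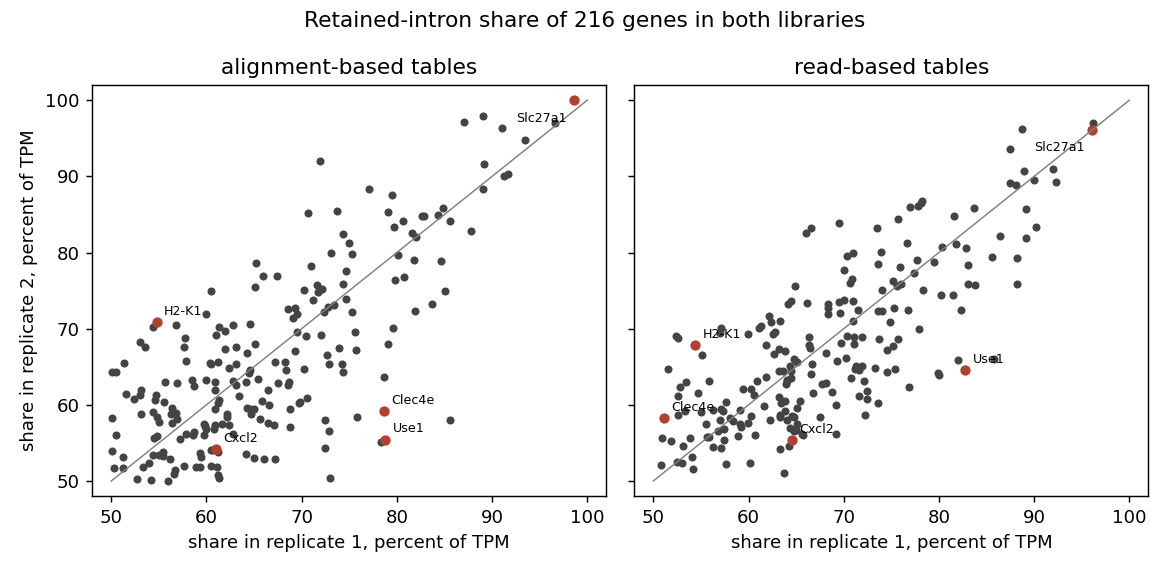
Retained-intron share of TPM in replicate 1 (horizontal) and replicate 2 (vertical) for the 216 genes, in percent, in the alignment-based tables (left) and the read-based tables (right), with the line of equality and 5 genes marked in red. Points lie on both sides of the line in both panels, with 113 and 116 below it, H2-K1 above it in both, and Clec4e below it only on the left.

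Gene counts scaled for library size and composition differed by more than 2-fold between the libraries in 5 of the 216 genes. Of these, 4 were lower in replicate 2, 1.85% of the set, and 1 was higher, 0.463%. In the comparison genes 18 were lower, 0.829%, and 7 higher, 0.322%. Among the 9675 genes whose counts averaged at least 100, with no TPM minimum, the share past 2-fold was 3.46%. It was made up of 1.83% lower in replicate 2 and 1.63% higher. The difference between these sets was not tested. Uba7, the activating enzyme for the ubiquitin-like protein ISG15, had 203 and 96.7 TPM and a log2 ratio of -1.36 (95% exact interval -1.41 to -1.31). Fibp had 21.8 and 12.8 TPM and a ratio of -1.44 (-1.67 to -1.22). Rgl2 had 67.1 and 34.6 TPM and a ratio of -1.27 (-1.36 to -1.18), and Hmg20b, a chromatin protein, 54.5 and 32.5 TPM and -1.02 (-1.13 to -0.91). Stap1, a signalling adaptor, had 11.6 and 24.4 TPM and a ratio of 1.10 (0.96 to 1.23). Next in size was Use1, at -0.99 (-1.23 to -0.75). The intervals cover counting error only. With 1 library on each side there is no replicate check of such a ratio. The median log2 ratio of the 216 genes was -0.19, against -0.03 in the comparison genes and 0.01 over all genes counted. Of the 216 genes 164 had a ratio below 0, which was not counted in the other sets.

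What the annotation holds for a gene went with its membership. The 216 genes had a median of 5 annotated retained-intron models and the comparison genes 2, while the median number of protein-coding models was 3 in both. Of expressed genes with a single retained-intron model, 1.17% were members, and with 2 models 3.75%. With 3 models the share was 7.81%, with 4 it was 11.8%, and with 5 or more it was 25%. A gene with more such models offers more transcripts to which reads can be assigned, and the part this plays in membership was not tested.

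**Figure D4:**
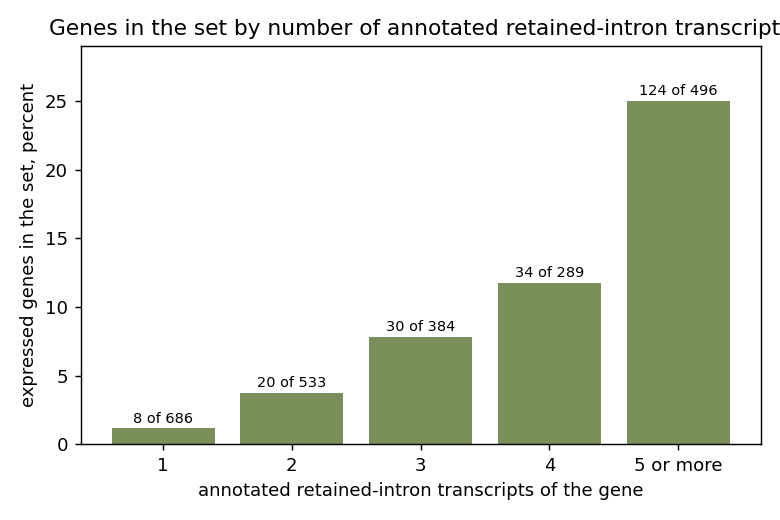
Percent of expressed genes that are among the 216, by the number of annotated retained-intron transcripts of the gene. The bars rise from 8 genes (1.17%) with 1 model to 124 genes (25%) with 5 or more.

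The class was spread over several models in most genes. The leading retained-intron model held a median of 26.4% and 29.4% of the gene's TPM in the alignment-based tables. A retained-intron model was the highest of all transcripts of the gene in all 4 tables in 115 genes, or 53.2%. In the comparison genes this share was 1.89%, a gap that the rule shaped. The retained-intron model with the highest level in a table was the same in all 4 tables in 99 genes, or 45.8%, against 59.3% of the comparison genes. A gene with only 1 retained-intron model can have no other leading one. Such genes were 3.7% of the chosen genes and 31.2% of the comparison genes. The shares with the same leading model are thus not on the same footing, and no difference between the sets can be read from them.

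How much intron these models hold also varied. A median of 42% of the leading model, or 467 bases, lay outside the exons of the gene's protein-coding transcripts, against 50.2% and 477 bases in the comparison genes. In 35 genes, 16.2%, under 10% of the leading model lay outside, against 7.0% of comparison genes. In 44 genes fewer than 100 bases did, against 227 of the 2172 comparison genes. In 3 genes, Aif1, Vps16 and Ccdc84, no base did, against 8 comparison genes. With only those retained-intron models counted that have 100 or more bases outside, 141 of the 216 genes still passed the rule and 75 did not. This alternative was chosen after seeing the data. Of the 12 highest genes 5 did not pass, namely H2-K1, Clec4e, Vim, Zc3h7a and Wnk1, and Aup1 did not either. Nor did Dctn6, Rps16, Irf3, Uba7, Psme2, Fibp, Rgl2, Hmg20b, Wdr43 and Ap1g2, among other genes named here. The 8 genes from the spliceosome list passed, but 7 of the 22 genes of the wider splicing and RNA processing group did not, Sart1 among them, nor did Smg9, the only gene from the nonsense-mediated decay list. The median share of counts was 42.5% in the 75 genes and 57.4% in the 141.

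Whole introns kept in a retained-intron model were found in 157 genes, 72.7%, against 48.8% of comparison genes. They were 466 of 3552 introns of the protein-coding transcripts, 13.1%, against 6.41%. Any annotated retained-intron model of the gene could hold the intron, with or without reads in these libraries. The introns thus describe the annotation and were not measured as retained in these cells. The 216 genes had a median of 5 models against 2. The shares of genes and of introns are thus not on the same footing, and the part of model number was not tested. An exon of another protein-coding transcript of the gene overlapped 72 of the 466. The other 394, in 153 genes, lay wholly outside such exons, 84.5% against 82.7% of those in the comparison genes. The leading model itself kept a whole intron in only 63 genes, 29.2%, against 28.4%. Trmt2a and Ssh3, with 12 each, had the most. The retained introns had a median length of 276 bases, from 63 in Dalrd3 and Cep250 to 4037 in Arid5a. Those of the comparison genes had a median of 274 bases. The other introns of the 216 genes had a median of 1286 bases. An intron has to fit inside an annotated exon to be counted, which limits its length.

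**Figure D5:**
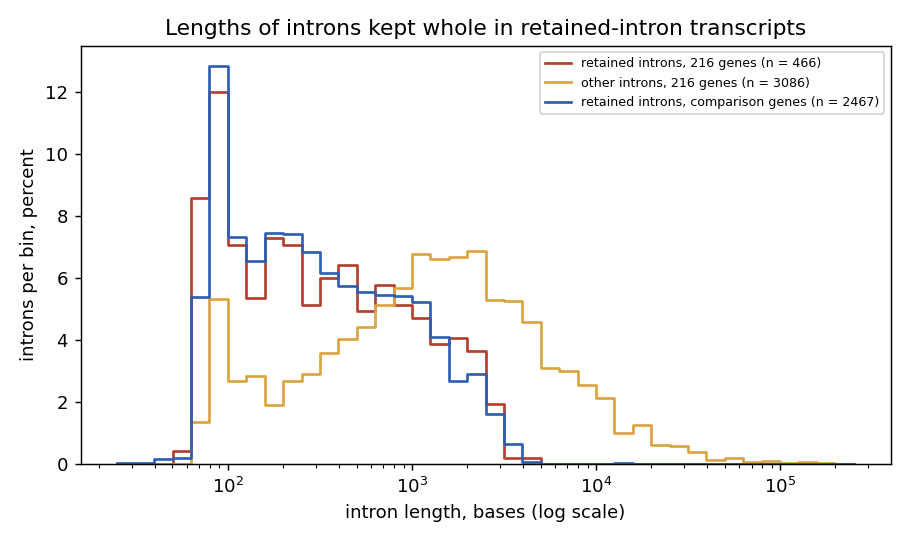
Length in bases (log axis) of introns kept whole in a retained-intron model of the 216 genes (red, 466 introns), of the other introns of these genes (yellow, 3086) and of retained introns of the comparison genes (blue, 2467), as percent of introns per bin. The red and blue lines peak near 100 bases, and the medians are 276 (red), 274 (blue) and 1286 bases (yellow). The longest retained introns have 4037 bases (red) and 15387 bases (blue).

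In sequence the retained introns of the 216 genes resembled those of the comparison genes. Their median GC content was 49.8% and 50.5%, and GT and AG ends were found in 456 of them, 97.9%, against 98.4%. A further 6 had GC and AG ends and none had AT and AC ends. No retained intron of the 216 genes started with exactly GTATCCTT or ATATCCTT, a typical 5′ site of introns that the minor spliceosome removes. In the comparison genes 8 of the 2467 did. Near matches and branch sites were not examined, so absence of such introns cannot be read from this. Retained introns of Rmc1 and Vps16 start with GTATCC. Of 442 retained introns between coding exons, 392 held a stop codon in frame, 88.7%, against 89.9%. Of the 50 without a stop, 17 have a length that is a multiple of 3, so that the frame would run on through the intron. GC content of the other introns was not analysed here.

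Another gene with counts overlapped 113 of the 216 genes, 31 on the same strand and 97 on the opposite strand, against 52.8% of the comparison genes on either strand. Since no label or header says whether counting used strand, reads of these neighbours may be included, as in Ikbke, Ccnl1, Wnk1 and Snrnp70. Lilr4b, Zc3h7a, Uba7, Nfkb1, Stap1 and Luc7l are among the 31 with a neighbour on the same strand, whose reads strand would not separate. Without all 113 genes that overlap another on either strand, 103 genes remained, with a median share of counts of 51.0%. H2-Q7, Oasl2, Ms4a6b, Ms4a4b, Cyp4f13, Akr1b10 and Gm21188 belong to families of similar genes and are uncertain for that reason.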

How the data were processed

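Ribosomal RNA-depleted RNA of the nucleoplasmic fraction was sequenced in 2 libraries. The deposited tables are on mm10 with GENCODE M21, per the file headers. The alignment-based gene and transcript tables hold expected counts and TPM made by the authors, and the read-based transcript tables hold estimated counts and TPM made by the authors. Which tools made them, and whether strand or trimming was used, is not given in the sources here. Transcript types were read from the deposited transcript names. Shares were recomputed from the deposited TPM or counts. A gene had to reach 10 TPM in both libraries and a share of 50% in all 4 transcript tables. tRNA, spike-in and phage rows were left out.

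Replicate ratios were log2 of expected counts, rounded to whole numbers, with a prior count of 0.5 and TMM scaling in edgeR 4.0.16 (factors 0.994 and 1.01), for genes whose counts averaged at least 100, and exact Clopper-Pearson intervals at 95%. No p-value is given, since there is 1 group. Introns of protein-coding transcripts of 30 bases or more were called retained when they lay whole inside an exon of a retained-intron transcript of the gene. No level was required of that transcript. The intron sequences came from the GENCODE M21 transcripts.

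The genes, lists and groups were chosen with earlier results of these data known. Named were the 12 genes with the highest mean TPM, the 6 highest and 6 lowest by share of counts, the 6 largest replicate ratios, genes of a list, and 3 on each side of the threshold. A gene that this rule names is not reported here. Others, among them Ncl, Irf3, Luc7l3, Zfc3h1, Nfkbie, the ribosomal proteins and the genes of class I presentation, were chosen after their values were seen. Of 25 mRNA export symbols 24 matched, and the first of 2 gene records was used for Zc3h11a. Alternatives were other thresholds, tables, units, transcript types, single libraries, scaling with DESeq2 1.42.0 size factors and removal of overlapping genes. The calculations were tested on simulated data. The software was R 4.3.3 and Python 3.11.15 with pandas 2.3.3, numpy 2.4.6, matplotlib 3.10.9 and scipy 1.17.1.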

Additional observations from a re-analysis of the deposited data

How the results depend on the processing

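The number of genes moved with each threshold: 326 genes at 5 TPM, 112 at 20 TPM and 613 with no minimum, 423 at a share of 40%, 94 at 60% and 21 at 75%. The read-based tables alone gave 339 genes and the alignment-based tables alone 259. Counting processed transcripts with retained-intron transcripts gave 400, removal of genes that overlap another gene 103, and a minimum of 100 bases outside coding-transcript exons 141, the last chosen after seeing the data. Leaving out either replicate gave 291 to 332 genes. By counts in place of TPM 177 genes passed, 105 of them among the 216. The median share of counts, 53.6% as the mean of both libraries, was 55.3% in the read-based tables, 51.0% without overlapping genes and 63.9% by TPM, and lay between 53.2% and 54.0% with either replicate left out. Read-based counts gave 3 genes beyond 2-fold between the libraries in place of 5, and 5 were found with DESeq2 size factors, library size, a prior count of 2, a mean count of 10 or no filter. The median GC content of 49.8% was 47.3% for the longest intron per gene, 49.0% for introns in the leading model, 50.4% without splice site bases and, both added after seeing the data, 49.5% for introns wholly outside coding-transcript exons and 49.9% with introns under 30 bases. No paired analysis was possible because there is 1 group. With 2 libraries, differences between them have no replicate check, and depth sets only their counting error. Assignment of reads among overlapping transcript models of a gene adds an error that these values do not show.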
